A study of Mus musculus with 8 samples.

Results

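Wnt signalling was examined in ventricles of mouse hearts at embryonic day (E) 15.5 through 45 genes that encode its ligands, receptors, inhibitors and feedback components. The genes were chosen by symbol: the Wnt, Frizzled (*Fzd*), *Sfrp*, *Dkk*, R-spondin (*Rspo*), *Lgr4* to *Lgr6*, *Lrp5* and *Lrp6*, *Axin*, *Nkd* and *Tcf7* families, together with *Lef1*, *Sost*, *Sostdc1*, *Wif1*, *Znrf3*, *Rnf43*, *Notum*, *Ctnnb1* and *Apc*. Of the 53465 genes in the deposited table, 63 symbols matched, and the 45 with at least 10 counts in at least 4 of the 8 libraries were kept. Poly(A) RNA was sequenced from 4 *Nrg1GOF* and 4 wild-type (WT) ventricle samples. *Nrg1GOF* mice carry an *Nrg1* transgene at the Rosa26 locus that is switched on by a Cre driver, which leads to excess neuregulin-1, a secreted growth factor that signals through ErbB receptors. The genotype label reads Rosa26Nrg-1;Nkx5.5-Cre, whereas the series title names Nkx2.5-Cre, a driver active in the cardiac lineage. The other group is labelled WT, without saying whether it carries Cre or the transgene alone. The comparison asked how the Wnt genes differ when *Nrg1* is overexpressed.

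Wnt proteins are secreted lipid-modified ligands that bind Frizzled receptors. In the canonical branch, Frizzled acts with the co-receptors Lrp5 and Lrp6 to stop the Axin and Apc complex from degrading beta-catenin (*Ctnnb1*), which then works with TCF/LEF factors on target genes. Other branches act on cell polarity and movement. R-spondins and their Lgr receptors keep Frizzled on the cell surface by withdrawing the ubiquitin ligases Rnf43 and Znrf3, secreted Sfrp, Wif1, Dkk and sclerostin proteins restrain the pathway outside the cell, and Axin2 and the Nkd proteins restrain it inside. In the developing heart, Wnt signals are known for their parts in progenitor growth, valve formation, outflow tract development and the ventricular wall.

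The 8 libraries held 8038641 to 26786039 counts, with *Nrg1GOF* library 4 the shallowest. Gene levels are stated in CPM (counts-per-million of a library size scaled by trimmed mean of M-values), and 3 counts corresponded to 0.115 to 0.375 CPM in these libraries. *Nrg1* was 59.7 to 63.7 CPM in *Nrg1GOF* and 3.07 to 4.47 CPM in WT, which made a log2 difference of 3.94 (SE 0.10, adjusted p = 8.26e-08 in the quasi-likelihood test of edgeR). The WT libraries fell into 2 pairs. Across genes, log2 CPM correlated at 0.989 for WT 1 and 2 and at 0.991 for WT 3 and 4, against 0.980 for every other WT pairing, where genes are not independent replicates. The median chi-square statistic of the counts was 1.03 and 0.867 within the pairs, 2.66 to 3.18 between them, and 0.455 is given by counting noise alone. The paired libraries were kept as separate samples, as the labels have them, but separate preparations of shared tissue could differ as much, and with each pair summed to 1 sample 2464 genes were called in place of 4467. P values measure the spread between these samples, and where the pairs share tissue or preparation that spread may be partly technical. The labels name no batch for this split and no *Nrg1GOF* library is assigned to it, so a comparison within the pairs was not possible.

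Of the 45 genes, 17 (37.8%) were called, that is, had an adjusted p under 0.05 over all genes tested, where 28.7% of the 15580 tested genes were called. Higher in *Nrg1GOF* were 15 (33.3%, background 15.9%), among them the ligands *Wnt9b*, *Wnt11*, *Wnt2b* and *Wnt4*, the receptor gene *Fzd7*, *Rspo2*, the inhibitor genes *Sost*, *Sfrp2* and *Wif1*, the feedback gene *Axin2*, and *Tcf7* and *Tcf7l1*. Lower were 2 (4.44%, background 12.8%), *Lgr4* and *Nkd2*. The libraries of the groups did not overlap in 20 of the 45 genes (44.4%, background 30.7%), and 8 were called with a log2 change of at least 1, where the background was 4.65%. The median log2 fold change was 0.27 over the 45 genes and -0.01 over all genes tested. Ventricles were sequenced in bulk, so a change in the number of cells that express a gene and a change in RNA per cell cannot be told apart.

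**Figure D1:**
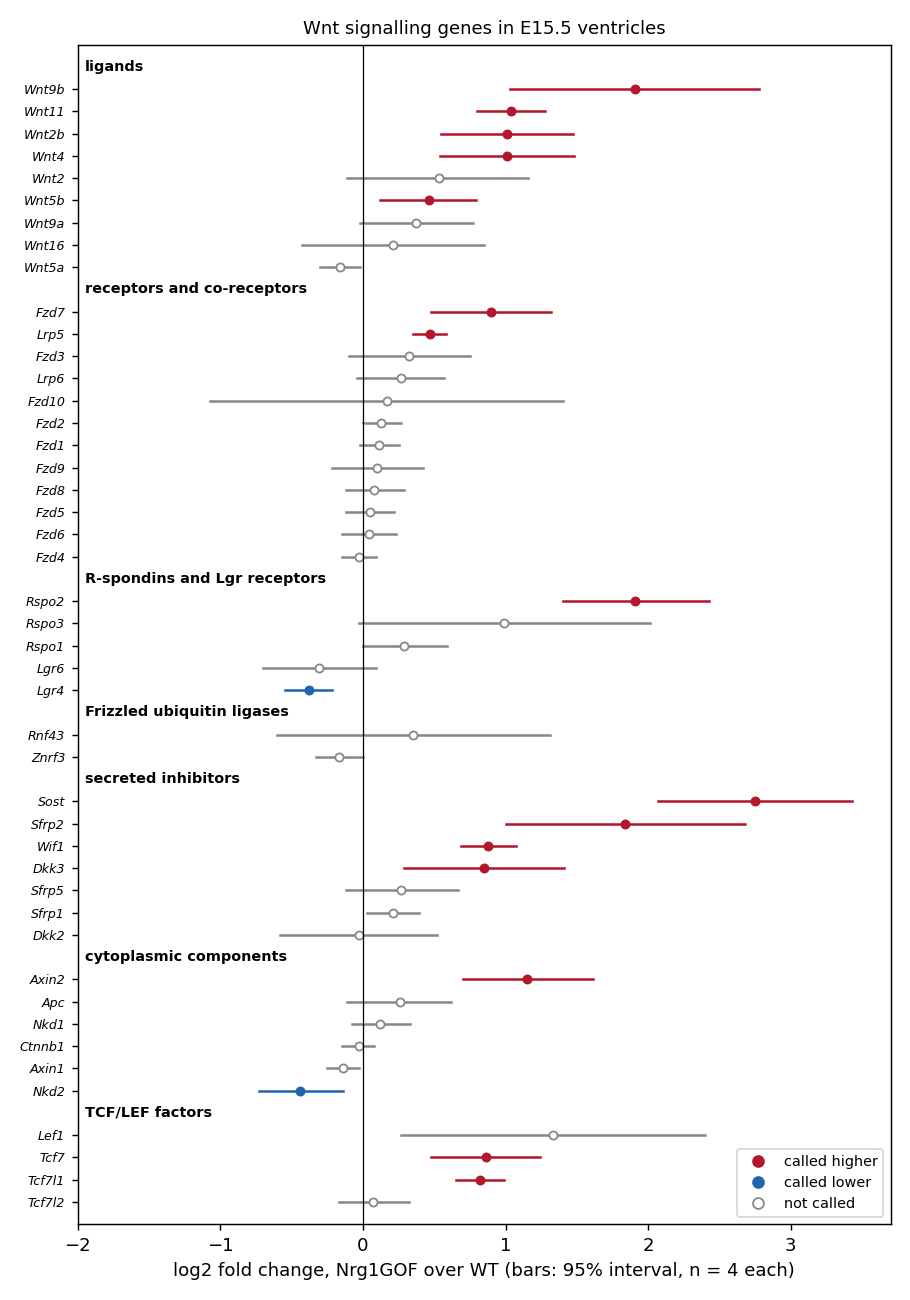
Log2 fold change of each of the 45 Wnt signalling genes, *Nrg1GOF* over WT (n = 4 each), grouped by role, with bars for the 95% interval. Filled red and blue points are called higher and lower, open grey points are not called. Red points occur among ligands, receptors, R-spondins, secreted inhibitors, cytoplasmic components and TCF/LEF factors, and *Sost* lies farthest to the right at 2.75.

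Markers of other cells were examined beside the Wnt genes. Over all tested genes, 28.7% were called, 15.9% higher and 12.8% lower, and these are the background shares for each marker list. All 8 genes of a fibroblast and mesenchyme list (*Postn*, *Col1a1*, *Col1a2*, *Col3a1*, *Dcn*, *Lum*, *Pdgfra* and *Tcf21*) were called higher, with summed levels of 7430 to 9534 CPM in *Nrg1GOF* and 4000 to 5456 CPM in WT, and the list member with the lowest WT mean, *Tcf21*, was at 24.3 CPM. Within WT, the sum was 5456 and 5435 CPM in libraries 1 and 2 but 4000 and 4024 CPM in libraries 3 and 4, the same split as in many of the Wnt genes. Of 8 epicardial markers 5 were called higher and 1 lower (summed level 225 to 260 against 176 to 208 CPM), of 8 endothelial and endocardial markers 3 were called higher (37.5%, near the 28.7% called over all tested genes, median log2 fold change 0.08, 1174 to 1232 against 1085 to 1140 CPM), of 6 atrial markers 3 were called higher (1601 to 1774 against 1001 to 1120 CPM), and all 6 macrophage markers were called higher (87.2 to 97.8 against 40.1 to 48.1 CPM). Of 8 cardiomyocyte markers 4 were called lower, and their sum of 28162 to 33012 CPM in *Nrg1GOF* and 36458 to 39612 CPM in WT fits the tissue named in the labels. Of 6 mural markers 1 was called higher and 3 lower, and none of 7 red cell markers and none of the 2 tested nerve and neural crest markers was called. The red cell sum also split within WT, with 12977 and 12143 CPM in libraries 1 and 2 and 5457 and 4383 CPM in libraries 3 and 4, against 5387 to 8851 CPM in *Nrg1GOF*. Among single markers of the other lists, *Myl7* was 176 and 156 CPM in WT 1 and 2 and 88.9 and 106 CPM in WT 3 and 4, and *Myh6* was 3718 and 3639 CPM against 2003 and 1960 CPM. The part of these cells in the Wnt results was not tested.

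Among the 9 ligand genes, 5 were called higher (55.6%, background 15.9%) and none lower (background 12.8%). *Wnt9b*, which encodes a canonical ligand known from endocardium and cushion development, was at 4.17, 3.81, 5.0 and 2.75 CPM in the *Nrg1GOF* libraries, given throughout in the order 1 to 4, and at 1.38, 1.80, 0.404 and 0.738 CPM in the WT libraries. Every *Nrg1GOF* library was above every WT library, and WT 3 and 4 were the lowest of all. On the log2 scale *Nrg1GOF* exceeded WT by 1.91 (SE 0.39, adjusted p = 0.00535), with 10 to 36 counts per WT library, and by 1.34 against WT 1 and 2 alone or 2.81 against WT 3 and 4 alone. *Wnt11*, a mostly non-canonical ligand with a role in outflow tract and myocardial development, was 13.0, 14.3, 13.1 and 15.8 CPM in *Nrg1GOF* and 7.64, 6.38, 6.11 and 7.01 CPM in WT. The groups were far apart and neither WT pair stood out, giving a log2 change of 1.04 (SE 0.11, adjusted p = 0.000133). An annotated gene on the opposite strand, *Gm8398*, overlaps exons of *Wnt11*, and the strand setting of the counting is not given in the sources used here.

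*Wnt2b* encodes a canonical ligand and was 4.45, 4.86, 3.64 and 4.13 CPM in *Nrg1GOF* and 2.22, 2.56, 1.42 and 2.29 CPM in WT. Its groups did not overlap, and the log2 fold change was 1.01 (SE 0.21, adjusted p = 0.00523). *Wnt4*, best known for kidney and gonad development and also expressed in the endocardium, was 4.45, 4.81, 5.52 and 5.38 CPM against 2.94, 3.16, 1.66 and 2.25 CPM. Again no library of a group reached the other group, and the WT values split into a higher and a lower pair. The log2 fold change of *Wnt4* was 1.01 (SE 0.21, adjusted p = 0.00582). *Wnt5b*, a non-canonical ligand, was 8.12, 11.9, 8.34 and 8.13 CPM in *Nrg1GOF* and 7.49, 6.71, 6.59 and 5.90 CPM in WT. The other 3 *Nrg1GOF* libraries lay close above WT 1, and library 2 stood apart. The log2 fold change of 0.46 (SE 0.15, adjusted p = 0.0455) was not called without *Nrg1GOF* library 2 (0.30, adjusted p = 0.125), nor without *Nrg1GOF* 1, WT 2, WT 3 or WT 4 (0.40 to 0.51). It also missed the threshold with the WT pairs summed (adjusted p = 0.159) and with the replicate number as a block (0.0554). Against WT 1 and 2 alone the adjusted p was 0.223, and against WT 3 and 4 alone it was 0.0564.

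The remaining ligands were not called. *Wnt5a*, a non-canonical ligand needed for outflow tract formation, was 33.4, 29.5, 31.3 and 32.5 CPM in *Nrg1GOF* and 37.8, 35.5, 34.0 and 34.1 CPM in WT, so that it leaned the opposite way to *Wnt5b* with groups that did not overlap (log2 fold change -0.16, SE 0.06, adjusted p = 0.0804). *Wnt2*, *Wnt9a* and *Wnt16* had log2 fold changes of 0.53, 0.37 and 0.21. A further 10 Wnt genes matched the rule but did not reach the count minimum.

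Promoters were available from the RefSeq annotation of GRCm38.p6 for 31 of the 45 genes, as windows from 250 bases before to 50 bases after each annotated start. A core of the TCF/LEF binding motif, ATCAAAG, was searched on both strands. It occurred in windows of 2 of the 31 genes (6.45%), *Wnt11* and *Wnt5b*, against 338 of 11246 tested genes (3.01%) and 1160 of 27025 genes with a window (4.29%). Both are called ligands, and their windows are shown up to the start site because each holds a match, together with that of *Axin2*, the feedback gene described further on, which holds none. The sequences read 5′ to 3′ on the strand of the gene, and capitals mark the match, with positions counted back from -1 at the base before the start. *Wnt11* (chr7:98834862-98835111, plus strand, first of its 2 starts) has the motif on the gene strand from -51, and *Wnt5b* (chr6:119449387-119449636, minus strand, 1 of its 3 starts) has its reverse complement from -71. *Axin2* lies at chr11:108920099-108920348 on the plus strand.
Wnt11: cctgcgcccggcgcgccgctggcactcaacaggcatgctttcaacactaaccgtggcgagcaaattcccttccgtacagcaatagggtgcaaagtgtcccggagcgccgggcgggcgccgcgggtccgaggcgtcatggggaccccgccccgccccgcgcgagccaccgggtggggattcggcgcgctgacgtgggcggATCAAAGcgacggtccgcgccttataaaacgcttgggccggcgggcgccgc
Wnt5b: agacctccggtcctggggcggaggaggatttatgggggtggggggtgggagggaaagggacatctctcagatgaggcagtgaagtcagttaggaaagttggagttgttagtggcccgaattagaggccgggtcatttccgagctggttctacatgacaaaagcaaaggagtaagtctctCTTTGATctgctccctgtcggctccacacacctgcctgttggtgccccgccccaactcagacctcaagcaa
Axin2: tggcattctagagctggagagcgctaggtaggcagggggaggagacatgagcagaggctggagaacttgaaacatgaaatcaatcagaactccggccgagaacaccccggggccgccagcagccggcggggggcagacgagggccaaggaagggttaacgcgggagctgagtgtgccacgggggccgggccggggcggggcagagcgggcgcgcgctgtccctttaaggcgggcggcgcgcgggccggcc
An ETS motif core, CCGGAAG, was searched in the same way, as ETS factors are known to act downstream of ErbB and ERK signalling, and none of the 31 genes held both motifs. It occurred in windows of 3 of the 31 genes (9.68%), *Fzd10*, *Rnf43* and *Tcf7*, against 18.8% of tested genes and 9.93% of all genes with a window. A match is a run of letters and not a measured binding site, and no binding was measured in these samples.

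**Figure D2:**
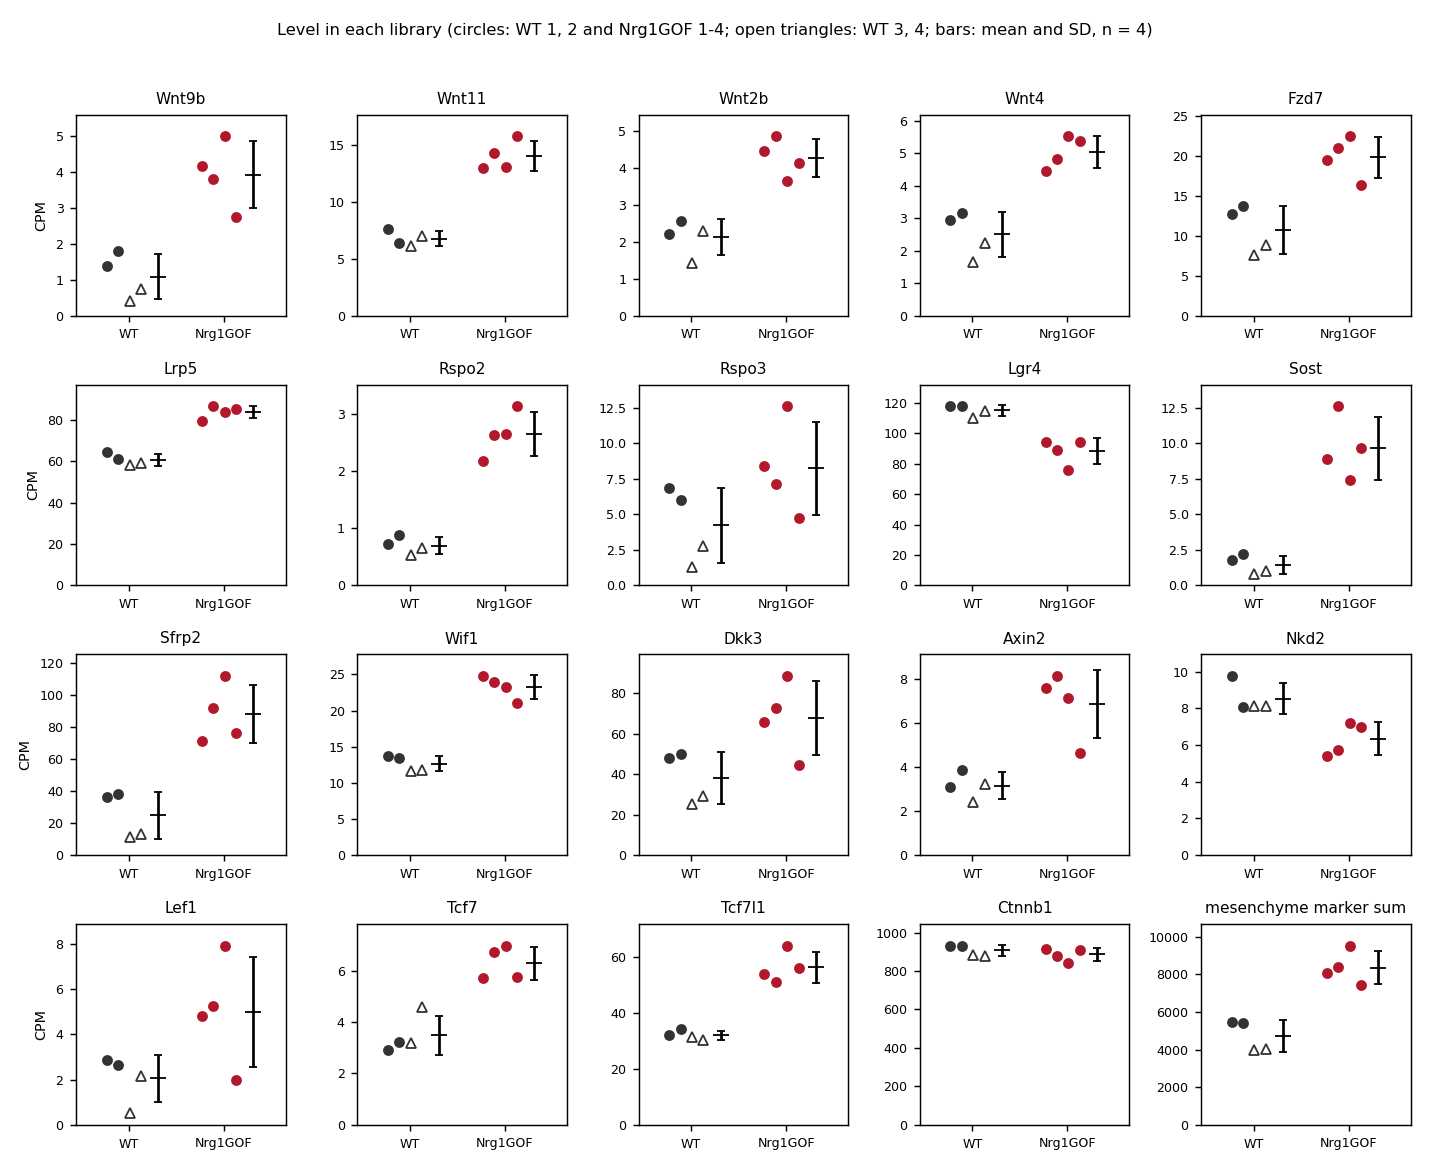
CPM in each library of the 17 called genes except *Wnt5b*, and of *Rspo3*, *Lef1*, *Ctnnb1* and the summed 8 mesenchyme markers. Filled circles are *Nrg1GOF* 1 to 4 and WT 1 and 2, open triangles are WT 3 and 4, and bars give mean and SD (n = 4). *Sfrp2*, *Rspo3*, *Dkk3*, *Fzd7* and the marker sum are lower in WT 3 and 4 than in WT 1 and 2, while *Wnt11*, *Wif1*, *Lrp5* and *Tcf7l1* have close WT values.

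Among the 12 receptor and co-receptor genes, 2 were called (16.7%, against 28.7% of all tested genes), both higher (background 15.9%). *Fzd7*, a receptor able to signal in both branches, was 19.5, 21.0, 22.5 and 16.4 CPM in *Nrg1GOF* and 12.8, 13.8, 7.56 and 8.81 CPM in WT. All *Nrg1GOF* libraries were above all WT libraries, and WT 3 and 4 were below WT 1 and 2. Its log2 fold change was 0.90 (SE 0.19, adjusted p = 0.00592), against 0.59 with WT 1 and 2 alone as controls and 1.3 with WT 3 and 4 alone. Expected counts of *Fzd7* and *Fzd2* were not whole, since reads that fit more than 1 gene were divided between them, so part of their reads is uncertain. *Lrp5*, the co-receptor gene, was 79.6, 86.6, 83.6 and 85.3 CPM in *Nrg1GOF* and 64.2, 61.0, 58.2 and 58.9 CPM in WT. Its spread within each group was small beside the distance between them, with a log2 change of 0.47 (SE 0.05, adjusted p = 0.000201). *Lrp6*, its close relative, was not called (0.27, 95% interval -0.04 to 0.57). The other 9 Frizzled genes were not called, with log2 fold changes from -0.03 for *Fzd4* to 0.32 for *Fzd3*. Their intervals were narrow for *Fzd4* (-0.15 to 0.09) and *Fzd5* (-0.12 to 0.22) and wide for *Fzd10* (-1.07 to 1.4), which had few counts.

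Of the 5 R-spondin and Lgr genes, 1 was called higher and 1 lower (40.0% in all, background 28.7%). *Rspo2*, whose product amplifies Wnt signals at the cell surface, was 2.18, 2.62, 2.65 and 3.13 CPM in *Nrg1GOF* and 0.726, 0.873, 0.526 and 0.656 CPM in WT. The lowest *Nrg1GOF* library was well above the highest WT library, with a log2 change of 1.91 (SE 0.23, adjusted p = 0.00029) on 13 to 19 counts per WT library. *Rspo3*, important for coronary vessel development, was 8.39, 7.14, 12.6 and 4.75 CPM in *Nrg1GOF* and 6.84, 6.0, 1.29 and 2.79 CPM in WT. Here the groups overlapped, and the value depended on the WT pair, with a log2 change of 0.99 (SE 0.46, adjusted p = 0.138) over all libraries, 0.39 (adjusted p = 0.429) against WT 1 and 2, and 2.05 (adjusted p = 0.0077) against WT 3 and 4. *Lgr4*, an R-spondin receptor gene, was 94.2, 88.8, 76.0 and 94.3 CPM in *Nrg1GOF* and 118, 118, 110 and 115 CPM in WT. Every *Nrg1GOF* library was lower, and the log2 fold change was -0.38 (SE 0.07, adjusted p = 0.00334). Opposite-strand genes overlap exons of *Rspo3*, as they do for *Wnt5a*. *Rspo1* (0.29) and *Lgr6* (-0.31) were not called. Neither Frizzled ubiquitin ligase was called, with *Znrf3* at -0.17 (SE 0.07, adjusted p = 0.124) and *Rnf43* at 0.35 with an interval of -0.60 to 1.31.

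Of the 7 secreted inhibitor genes, 4 were called higher (57.1%, background 15.9%) and none lower, and they held the highest fold change of the 45 genes. *Sost*, which encodes the Lrp5 and Lrp6 antagonist sclerostin and is best known from bone, was 8.85, 12.6, 7.40 and 9.63 CPM in *Nrg1GOF* and 1.80, 2.18, 0.809 and 0.983 CPM in WT. The groups were separated by a wide gap, and the mean was 9.61 ± 2.18 CPM (SD, n = 4) against 1.44 ± 0.654 CPM (SD, n = 4). In log2 units the difference was 2.75 (SE 0.30, adjusted p = 0.000184), a 6.73-fold difference, and it was 2.28 against WT 1 and 2 alone and 3.42 against WT 3 and 4 alone. *Sfrp2*, a soluble Frizzled-like protein gene expressed in mesenchyme, was 71.5, 91.6, 112 and 76.6 CPM in *Nrg1GOF* and 36.6, 38.0, 11.1 and 13.3 CPM in WT. All *Nrg1GOF* libraries were higher, while WT 1 and 2 were 3.06 times WT 3 and 4. Its log2 fold change was 1.84 (SE 0.38, adjusted p = 0.00518), and it was 1.24 against WT 1 and 2 and 2.86 against WT 3 and 4. *Sfrp2* shares exon bases with the opposite-strand gene *Gm26771*.

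*Wif1*, which binds Wnt proteins directly, was 24.8, 23.9, 23.3 and 21.0 CPM in *Nrg1GOF* and 13.7, 13.4, 11.7 and 11.8 CPM in WT. Both groups were tight, and the log2 fold change was 0.88 (SE 0.08, adjusted p = 8.75e-05). *Dkk3*, a member of the Dickkopf family that differs from the others in its effect on Wnt signalling, was 65.9, 72.9, 88.6 and 44.4 CPM in *Nrg1GOF* and 48.2, 50.1, 25.2 and 29.3 CPM in WT. *Nrg1GOF* library 4 lay below WT 1 and 2, so the groups overlapped although the gene was called (log2 fold change 0.85, SE 0.25, adjusted p = 0.0304). That call was lost without *Nrg1GOF* 1, 2 or 3 or without WT 3 or 4 (0.69 to 0.87, adjusted p = 0.0587 to 0.0798) and against WT 1 and 2 alone (0.48, adjusted p = 0.144) or with the WT pairs summed (0.85, adjusted p = 0.0894), whereas the value was 1.34 (adjusted p = 0.00334) against WT 3 and 4 alone. *Sfrp1*, the inhibitor gene with the highest level, was 181, 198, 221 and 186 CPM against 182, 181, 164 and 152 CPM and was not called (0.21, adjusted p = 0.0806). *Sfrp5* (0.27) and *Dkk2* (-0.03, 95% interval -0.58 to 0.52) were not called either.

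Among the cytoplasmic components, *Axin2* was higher, *Nkd2* was lower, and the other 4 of 6 were not called (33.3% called, background 28.7%). *Axin2*, a direct target of beta-catenin that feeds back on its degradation, was 7.58, 8.14, 7.14 and 4.63 CPM in *Nrg1GOF* and 3.10, 3.87, 2.39 and 3.24 CPM in WT. Each *Nrg1GOF* library was above each WT library, with the shallow library 4 the nearest to WT. The log2 fold change was 1.15 (SE 0.20, adjusted p = 0.00235), and it was 1.01 against WT 1 and 2 and 1.32 against WT 3 and 4. *Gm11670* overlaps exons of *Axin2* on the opposite strand. For *Axin1*, its constitutive relative, the log2 difference was -0.14 (SE 0.05, adjusted p = 0.0574), which missed the threshold.

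*Nkd2*, an inhibitor that binds Dishevelled, was 5.40, 5.76, 7.23 and 7.0 CPM in *Nrg1GOF* and 9.78, 8.07, 8.13 and 8.15 CPM in WT. The groups did not overlap, but WT 1 stood above the other WT libraries. The log2 fold change of -0.44 (SE 0.13, adjusted p = 0.0326) was not called without *Nrg1GOF* 1, *Nrg1GOF* 2, WT 1, WT 3 or WT 4 (-0.46 to -0.36). The call was also lost with the WT pairs summed (adjusted p = 0.117) and with the replicate number as a block (0.0607). Against WT 1 and 2 alone the adjusted p was 0.0695, and against WT 3 and 4 alone it was 0.124. *Ctnnb1* itself was 912, 879, 844 and 908 CPM in *Nrg1GOF* and 931, 932, 885 and 879 CPM in WT. The groups lay across each other and the log2 fold change was -0.03 (SE 0.05, 95% interval -0.15 to 0.08, adjusted p = 0.675), with a sign that turned under scaling by the library total (0.01). *Ulk4* overlaps *Ctnnb1* on the opposite strand. *Nkd1* (0.12) and *Apc* (0.26) were not called.

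Of the 4 TCF/LEF genes, 2 were called higher (background 15.9%). *Tcf7l1*, which encodes the family member that mainly represses target genes, was 54.1, 51.1, 64.1 and 56.1 CPM in *Nrg1GOF* and 32.0, 34.3, 31.3 and 30.3 CPM in WT. The groups were well separated, with a log2 change of 0.82 (SE 0.08, adjusted p = 7.66e-05), the lowest adjusted p of the 45 genes, and *Gm15401* overlaps its exons on the opposite strand. *Tcf7*, known from T cells and expressed in other tissues that respond to Wnt, was 5.72, 6.71, 6.97 and 5.75 CPM in *Nrg1GOF* and 2.90, 3.22, 3.19 and 4.59 CPM in WT. WT 4 was the highest WT library and still below every *Nrg1GOF* library, and the log2 fold change was 0.86 (SE 0.17, adjusted p = 0.00455). *Tcf7l2* was not called (0.07, 95% interval -0.17 to 0.32).

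*Lef1*, an activating partner of beta-catenin and itself a target, was 4.81, 5.24, 7.91 and 2.0 CPM in *Nrg1GOF* and 2.87, 2.62, 0.526 and 2.17 CPM in WT. *Nrg1GOF* library 4, with 16 counts, lay below 3 of the WT libraries, and WT 3, with 13 counts, lay below all others. The log2 fold change was 1.33 (SE 0.48, 95% interval 0.27 to 2.40) and the adjusted p of 0.0624 missed the threshold, which it passed in 7 alternatives, among them without *Nrg1GOF* 4 (1.56, adjusted p = 0.0321), with DESeq2 (1.3, adjusted p = 0.0223) and against WT 3 and 4 alone (1.94, adjusted p = 0.0395). It missed the threshold against WT 1 and 2 alone (0.91, adjusted p = 0.155) and with the WT pairs summed (1.33, adjusted p = 0.108). Over all alternatives the adjusted p ranged from 0.0192 to 0.164. *Gm43352* overlaps *Lef1* on the opposite strand.

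**Figure D3:**
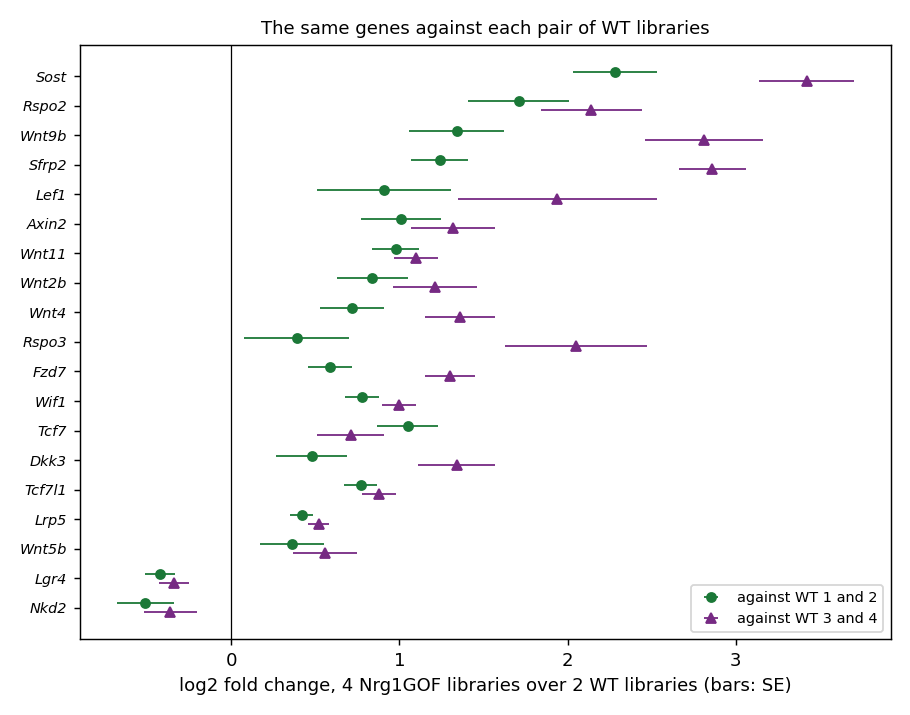
Log2 fold change of the 17 called genes, *Lef1* and *Rspo3* when the 4 *Nrg1GOF* libraries were compared with WT 1 and 2 alone (green circles) or WT 3 and 4 alone (purple triangles), with bars for the SE. All lie on the same side of 0 against both pairs, and *Rspo3*, *Sfrp2*, *Wnt9b*, *Sost* and *Lef1* show differences of at least 1 between the pairs.

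The WT split bore on the size of many of these values. In 33 of the 45 genes (73.3%) the values of WT 1 and 2 did not overlap those of WT 3 and 4, which was also so in 61.6% of all tested genes. Pairs that did not overlap and were higher in WT 1 and 2 were found in 28 of the 45 genes (62.2%), where 30.6% of all tested genes were of this kind and 31.0% did not overlap and were lower in WT 1 and 2. The ratio of the pair means was over 1.5 in 12 genes and was highest for *Fzd10* (3.6), *Rspo3* (3.15), *Sfrp2* (3.06), *Wnt9b* (2.78), *Sost* (2.22) and *Lef1* (2.03). Against WT 1 and 2 alone, 14 of the 45 genes were called (13 higher, 1 lower), and against WT 3 and 4 alone 22 (21 higher, 1 lower). Over all genes the count also rose, from 2999 (1691 higher, 1308 lower) against WT 1 and 2 to 4487 (2599 higher, 1888 lower) against WT 3 and 4. Each of the 17 genes kept its direction against both pairs.

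**Figure D4:**
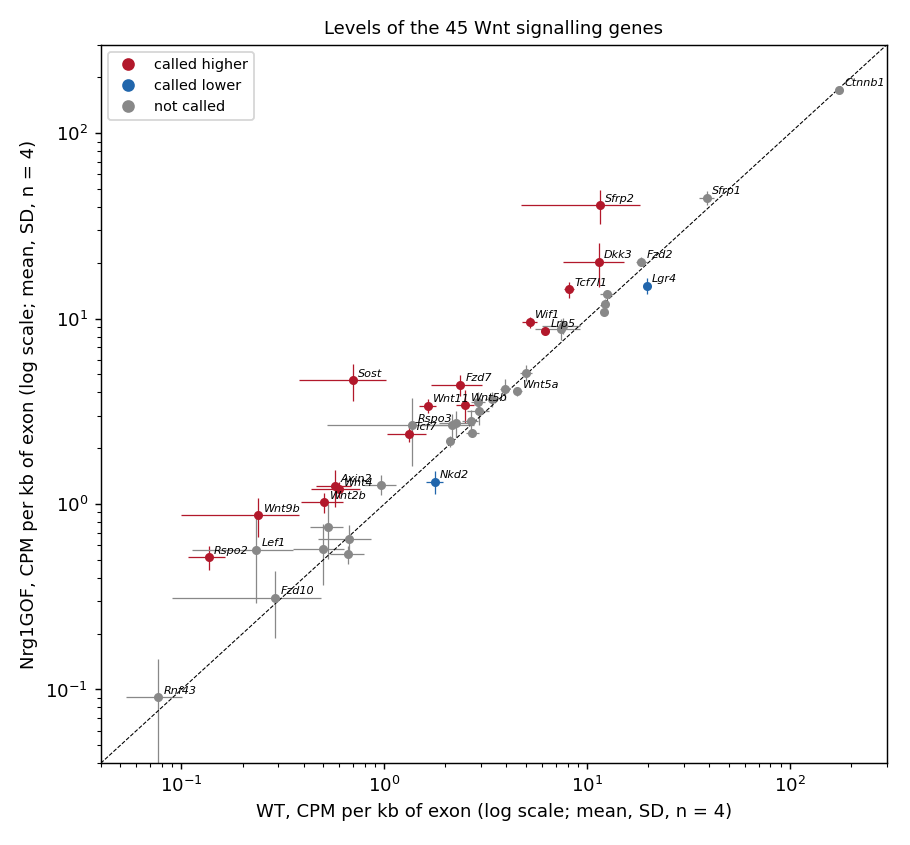
Mean level of each of the 45 genes in CPM per kilobase of annotated exon in WT (x axis) and *Nrg1GOF* (y axis), both on log scales, with SD bars (n = 4) and a dashed line of equal level. Red and blue points are called higher and lower, and *Sost* and *Sfrp2* stand farthest above the line among genes over 0.5 CPM per kilobase in WT.

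Levels were compared between genes only per kilobase of annotated exon. In WT, *Ctnnb1* was highest at 175 ± 5.53 CPM per kilobase (SD, n = 4), followed by *Sfrp1* at 38.8 ± 3.29, *Lgr4* at 19.6 ± 0.606 and *Fzd2* at 18.5 ± 1.18. *Ctnnb1* and *Sfrp1* each stood beyond the spread of the gene next in order, whereas *Lgr4* and *Fzd2* did not differ beyond theirs. Among ligands *Wnt5a* had the highest mean in both groups, at 4.52 ± 0.226 in WT and 4.05 ± 0.215 in *Nrg1GOF*, followed by *Wnt5b* (2.51 ± 0.245) and *Wnt11* (1.64 ± 0.166) in WT. In *Nrg1GOF*, *Wnt5b* (3.43 ± 0.691) overlapped the spread of both *Wnt5a* and *Wnt11* (3.39 ± 0.310), and with the longest transcript as length *Wnt11* came before *Wnt5b*. *Rspo2* (0.136 ± 0.0283) and *Rnf43* (0.0766 ± 0.0236) were lowest in WT. From WT to *Nrg1GOF*, *Sfrp2* moved from place 8 (11.5 ± 6.76) to place 3 (40.8 ± 8.45), *Sost* from place 33 (0.698 ± 0.317) to place 16 (4.65 ± 1.05), and *Lgr4* from place 3 to place 6 (15 ± 1.46). In both groups each of these genes overlapped the spread of a gene next to it in order, so the exact places are not resolved.

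The count minimum lay close to the levels of several genes. Just inside it, *Rnf43* had 22, 13, 15 and 1 counts in *Nrg1GOF* and 11, 6, 15 and 16 in WT. Just outside it, *Notum*, whose product removes the lipid from Wnt proteins, had 19, 33, 43 and 8 counts in *Nrg1GOF* and 9, 7, 1 and 8 in WT. Farther below, *Lgr5*, the stem cell marker, had 7, 4, 13 and 1 counts against 1, 3, 3 and 2. *Notum* reached 10 counts in 3 *Nrg1GOF* libraries and in no WT library, so no test of it is given, and annotated opposite-strand genes overlap its exons. *Sostdc1*, a relative of *Sost*, had 10, 9, 1 and 1 counts in *Nrg1GOF* and 0 in every WT library, at or near the limit of detection. Of the 18 genes outside the minimum, 7 had no count in any library. Among the 45 genes, 8 had at least 1 library under 20 counts, and each of the 45 reached 10 counts in at least 1 library of both groups.

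Other genes of the pathway were described through 4 lists, and 31 of their 75 tested genes (41.3%) were called, 25 higher (33.3%) and 6 lower (8.0%), where the shares over all tested genes were 28.7%, 15.9% and 12.8%. Earlier results of these data were known when the lists were made, so the shares are descriptive and no independent test. Among 25 core components, which carry Wnt proteins out of the cell or transmit the signal inside it, 3 were called higher and 1 lower (16.0% in all), with a median log2 fold change of 0.01. These were *Tle3* (0.68, SE 0.10, adjusted p = 0.000672), *Tle1* (0.38) and *Tle4* (-0.24), which encode Groucho-type co-repressors, and *Apc2* (0.34), and *Apc2* and *Tle4* lost their calls in more than 10 alternatives each. Among 21 tested co-receptor and planar polarity genes, 6 were called higher and 2 lower (38.1% in all, median 0.12). *Prickle2*, a planar polarity gene, rose by 0.67 (SE 0.11, adjusted p = 0.00128), the glypicans *Gpc6* and *Gpc4* rose by 0.66 and 0.63, and *Ptk7*, a Wnt co-receptor gene, rose from 93.1 ± 4.62 to 133 ± 9.24 CPM (SD, n = 4, log2 fold change 0.51).

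Among 15 other inhibitor genes, 8 were called higher and 2 lower (66.7% in all), with a median of 0.78. *Apcdd1*, a membrane-bound Wnt inhibitor gene, was at 35.6 ± 3.88 CPM in *Nrg1GOF* and 13.5 ± 4.32 CPM in WT (SD, n = 4), without overlap of the libraries (log2 fold change 1.41, SE 0.20, adjusted p = 0.000758). *Shisa2*, whose product retains Frizzled inside the cell, rose by 1.4 (SE 0.33, adjusted p = 0.0103), *Trabd2b*, a protease gene acting on Wnt ligands, by 1.32 (SE 0.16, adjusted p = 0.000304), and *Frzb*, a soluble Frizzled-like protein gene, by 0.98 (SE 0.20, adjusted p = 0.00568). Among 14 genes known as targets of beta-catenin in other settings, 8 were called higher and 1 lower (64.3% in all, median 0.46). *Nrcam* is counted among these and in the totals over the 4 lists, with 5 to 11 counts per WT library. Its level was 0.857 to 1.13 CPM in *Nrg1GOF* and 0.273 to 0.42 CPM in WT. It passed the filter for testing only through *Nrg1GOF*, the group in which it was higher, so no test of it is given. Of the others, *Msx2* rose by 1.39, *Twist1* by 1.14 and *Id2* by 0.74, and the transcription factor genes among these are also controlled by other signals such as BMP. Some of these values depended on the WT pair used as control: *Shisa2* was 0.96 against WT 1 and 2 and 2.04 against WT 3 and 4, *Apcdd1* 1.06 and 1.87, and *Twist1* 0.76 and 1.66. *Msx2* was not called against WT 1 and 2 (1.13, adjusted p = 0.0918). These lists include genes expressed in mesenchyme, whose markers were higher in *Nrg1GOF* as given above.

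**Figure D5:**
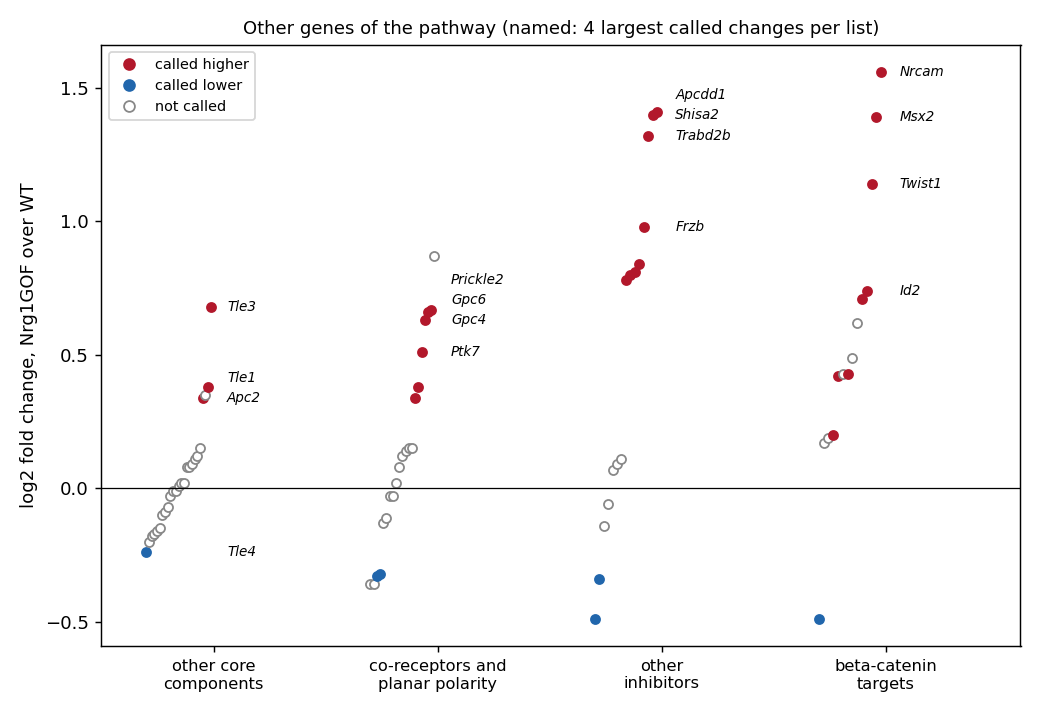
Log2 fold change (*Nrg1GOF* over WT, n = 4 each) of every tested gene in 4 lists of other Wnt pathway genes, with red, blue and open points for called higher, called lower and not called. The 4 largest called changes of each list are named, and the core components lie closest to 0 (median 0.01) while the other inhibitors have the highest median (0.78).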

How the data were processed

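RNA-seq was performed by the study on E15.5 ventricles, 1 sample per replicate, with 100 ng of RNA, a directional poly(A) kit and single reads of 60 bases. The table deposited by the authors gives RSEM expected counts by gene (the submitters' processing notes name cutadapt and RSEM 1.3.1 with GRCm38, and the table's name Ensembl release 91), not scaled for depth or length. The aligner and strand setting are not given in the sources used here.

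Expected counts were rounded. Genes were filtered with filterByExpr, scaled by trimmed mean of M-values and tested by the two-sided quasi-likelihood F-test of edgeR 4.0.16 (R 4.3.3), *Nrg1GOF* against WT, with Benjamini-Hochberg adjustment over 15580 genes. Each SE equals the size of the log2 fold change over the root of its F statistic. Symbols and exon lengths came from GENCODE M21, also on GRCm38 but a later release (53360 of 53465 identifiers matched). The script was tested on simulated data.

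The genes and lists were chosen with earlier results of these data known. By rule, values per library were given for every called gene of the 45 and for *Ctnnb1*, *Axin2* and *Lef1*, and the 4 largest called changes of each other list were named. *Rspo3*, *Wnt5a*, *Sfrp1*, *Myl7*, *Myh6* and genes near the count minimum were added after their values were seen. Alternatives were 3 other scalings, 2 other filters, DESeq2 1.42.0, the likelihood ratio test, limma-voom (limma 3.58.1), unrounded counts, a replicate block, other WT subsets, thinning to equal library totals, stricter thresholds and leaving out each library. No interval or floor covers more than counting error or the spread between libraries, since reads carried no molecular identifiers.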

Additional observations from a re-analysis of the deposited data

Results flagged for a closer look

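Of 74 sets of 4 values examined (each gene named by the rule, and the library totals, in each group), 3 held a library far from the other 3, where chance would give 3.7. *Wnt5b* was 11.9 CPM in *Nrg1GOF* library 2 and 8.12 to 8.34 CPM in the other *Nrg1GOF* libraries. *Nkd2* was 9.78 CPM in WT library 1 and 8.07 to 8.15 CPM in the other WT libraries. *Nrg1GOF* library 4 held 8038641 counts, against 20578081 to 22547833 in the other *Nrg1GOF* libraries.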

How the results depend on the processing

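The 17 called genes kept their direction in all 22 alternative fits, and 14 were called in each of them. The calls that were lost were those of *Nkd2* (12 fits), *Wnt5b* (11) and *Dkk3* (7). Leaving out each library in turn gave 14 to 18 called genes of the 45 (13 to 16 higher, 1 to 2 lower), with 14 without *Nrg1GOF* 1, *Nrg1GOF* 2, WT 3 or WT 4 and 18 without *Nrg1GOF* 4. Over all genes these fits called from 3239 (without *Nrg1GOF* 2) to 4261 (without *Nrg1GOF* 4), against 4467 with all libraries. The count of lower genes was 1 with scaling by library total, no filter, either WT pair alone, the WT pairs summed, thinning and an adjusted p under 0.01. When a log2 change of at least 1 was required, 8 genes remained (8 higher, 0 lower), as did 6 of the other pathway genes (6 higher, 0 lower), *Nrcam* among them. Over all genes, 2464 were called with the WT pairs summed (1548 higher, 916 lower), 1308 lower against WT 1 and 2, 2535 with an adjusted p under 0.01 (1503 higher, 1032 lower) and 724 with the minimum change (582 higher, 142 lower). Scaling by library total gave 2874 higher and 1521 lower genes against 2474 and 1993. *Ctnnb1* turned to 0.01 under scaling by library total and against WT 3 and 4 alone. With the longest transcript as length, 18 of the 45 genes kept their place in the order of levels. The cause of these moves was not tested. Whether replicate numbers mark pairs was not settled by the data. Deviations of same-numbered libraries correlated at 0.129, 0.049, 0.199 and 0.067, against a mean of -0.037 for libraries of different numbers. With the replicate number as a block, 15 of the 45 genes were called (14 higher, 1 lower). In all, 4524 genes were called in that fit (2407 higher, 2117 lower), 4093 of them shared with the fit without the block. Depth limits genes near the floor of 3 counts, most in *Nrg1GOF* 4.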
